A study of Mus musculus with 22 samples.

Results

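The machinery that transcribes protein-coding genes was followed as 84 of the 22592 genes listed in the expression tables. A gene was taken when its symbol named an RNA polymerase II gene (Polr2a to Polr2m), a TBP-associated factor (Taf followed by a digit, without Taf4b), a part of TFIIA, TFIIB, TFIIE, TFIIF or TFIIH (Gtf2a, b, e, f and h), or a Mediator subunit (Med followed by a number). Tbp, Tbpl1, Cdk7, Ccnh, Cdk9, Ccnt1 and Ccnt2 were taken by name. The 84 genes are 13 polymerase genes, 2 TBP genes, 15 TFIID factors, 3 TFIIA genes, 1 TFIIB gene, 2 TFIIE and 2 TFIIF genes, 7 TFIIH genes, 30 Mediator genes, 3 P-TEFb genes, and 6 genes whose Taf names belong to other assemblies. Of those 6, Taf1b, Taf1c and Taf1d are parts of SL1, the RNA polymerase I selectivity factor, Taf5l and Taf6l are parts of the SAGA coactivator, and Taf15 is an RNA-binding protein of the FET family. The elongation factors SPT5, SPT6 and SPT16 were sought as Supt5h, Supt6h and Supt16h, which no table lists, and are given further down as Supt5, Supt6 and Supt16, outside the 84.

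The series holds 22 mouse RNA-seq libraries made by Smart-seq2, a full-length cDNA protocol for very small samples. Setd2 encodes the methyltransferase that places the trimethyl mark on lysine 36 of histone H3, and the study describes its mutants as Setd2 maternal knockouts. The study asked how histone marks affect each other in the oocyte and whether abnormal transcription is passed to the mutant embryo. Growing oocytes of 20 to 30 μm came from Setd2-/- and Setd2+/- ovaries at postnatal day 7. Full-grown oocytes came from Setd2_KO and Setd2_Con females of 8 weeks, 48 h after PMSG, a gonadotropin that drives follicle growth. Zygotes of the same genotypes were taken 30 h after hCG, which triggers ovulation. The next libraries carry 48 h in their titles and were 1-cell in the knockout and 2-cell in the control, so genotype and cell stage cannot be told apart there. In the 8-cell embryos labelled Setd2-/- and Setd2+/-, spindle and chromosomes had been moved between Setd2mNull and control oocytes before sperm injection, after priming with 5 IU of PMSG and 5 IU of hCG 48 h apart. The labels do not say which component gave an embryo its genotype label, and they name no Cre driver. The females were 8 weeks old for the zygotes, the 48 h embryos and the spindle-transfer embryos too. Each of the Setd2 groups had 2 libraries. Full-grown oocytes labelled Dnmt3l_KO and Dnmt3l_Con, also from females of 8 weeks 48 h after PMSG, had 1 library each, from columns named as merged. Nothing says that replicates are separate animals, so p-values measure the spread between these samples, which may be technical.

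Transcription by RNA polymerase II starts when TFIID, which holds TBP and its TAF partners, and TFIIA and TFIIB settle on a core promoter and bring in the polymerase with TFIIF. TFIIE and TFIIH then join, TFIIH opens the DNA and its kinase CDK7 marks the polymerase tail, while Mediator carries signals from activators to this assembly. P-TEFb, made of CDK9 and a cyclin T, releases polymerase that has paused near the start. Growing mouse oocytes transcribe actively, full-grown oocytes fall silent and live on stored mRNA, and the embryo's own genome becomes broadly active at the 2-cell stage.

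Promoters of 4 genes are printed because they stand at the 2 ends of the results below. Polr2f and Med29 were among the members most raised in control 2-cell embryos, and Gtf2b and Gtf2a1l among the members that fell most there. Each sequence is RefSeq's for GRCm38.p6, runs 5′ to 3′ on the strand of the gene and covers 250 bases before the start site and 50 after it. Capitals mark matches on either strand to the letters CCGGAAG (ETS factors), GGGCGG (SP1), CCAAT (the CCAAT box), AAGATGGC (YY1) and TATAAA (the TATA box), and no printed match overlaps another.
Polr2f (chr15:79141075-79141374, plus strand): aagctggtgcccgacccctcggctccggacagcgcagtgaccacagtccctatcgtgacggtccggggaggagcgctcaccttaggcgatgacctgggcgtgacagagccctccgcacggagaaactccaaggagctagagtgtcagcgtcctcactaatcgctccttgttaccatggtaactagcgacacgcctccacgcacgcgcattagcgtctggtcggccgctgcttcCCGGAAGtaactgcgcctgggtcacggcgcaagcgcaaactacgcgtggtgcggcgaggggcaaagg
Med29 (chr7:28392641-28392940, minus strand): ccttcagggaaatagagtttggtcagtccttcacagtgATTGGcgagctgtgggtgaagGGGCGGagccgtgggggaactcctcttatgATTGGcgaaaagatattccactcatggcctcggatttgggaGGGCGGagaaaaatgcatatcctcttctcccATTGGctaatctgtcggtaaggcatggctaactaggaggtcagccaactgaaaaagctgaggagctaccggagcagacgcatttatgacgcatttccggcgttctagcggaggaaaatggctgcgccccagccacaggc
Gtf2b (chr3:142764997-142765296, plus strand): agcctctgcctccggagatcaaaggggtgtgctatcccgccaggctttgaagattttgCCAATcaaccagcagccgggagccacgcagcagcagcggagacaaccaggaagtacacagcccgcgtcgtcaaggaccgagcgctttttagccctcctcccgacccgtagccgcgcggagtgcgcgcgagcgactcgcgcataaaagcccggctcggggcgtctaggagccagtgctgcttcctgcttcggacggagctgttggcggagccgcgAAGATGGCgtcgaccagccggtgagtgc
Gtf2a1l (chr17:88668410-88668709, plus strand): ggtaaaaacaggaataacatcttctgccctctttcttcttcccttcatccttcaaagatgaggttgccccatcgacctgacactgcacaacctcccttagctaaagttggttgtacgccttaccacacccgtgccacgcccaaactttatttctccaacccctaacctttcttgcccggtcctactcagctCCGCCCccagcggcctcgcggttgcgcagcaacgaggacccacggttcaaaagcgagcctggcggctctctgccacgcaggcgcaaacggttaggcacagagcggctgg
The Polr2f promoter held 1 ETS match, which started 17 bases before the start site. The Med29 promoter held 3 CCAAT matches on the reverse strand and 2 SP1 matches. The Gtf2b promoter held 1 CCAAT match and 1 YY1 match that began 23 bases into the transcript, and the Gtf2a1l promoter held 1 SP1 match on the reverse strand. RefSeq's table matched 72 members by symbol, with 86 promoters, out of 32851 promoters in all. The ETS letters were in 32.6% of the members' promoters, against 8.86% of all promoters and 11.6% of the promoters of genes in the expression tables. The SP1 letters were in 66.3%, 35.7% and 47.5% of these sets, and the YY1 letters in 8.14%, 2.75% and 3.17%. The CCAAT letters were in 31.4%, 37.4% and 38%, and the TATA letters in 14%, 13.6% and 12.1%. SP1 letters were in 73.5% of 49 promoters of members higher in control 2-cell embryos than in zygotes and in 35% of 20 promoters of members lower there, while ETS letters were in 36.7% and 45% of them. The 20 promoters belong to only 16 genes. This split was not made for all genes called at that step, so whether it is particular to the members was not tested. A match is a run of letters and does not show binding, and genes with several promoters count more than once.

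No read counts were used here, and the smallest steps between low FPKM values put the libraries at roughly 3.11 to 22.5 M fragments (M for mega), with zygotes and 48 h embryos lowest at 3.11 to 4.70 M. FPKM is a share of each library, so fewer transcripts per cell of one gene and more of all others cannot be told apart. Setd2 averaged 0.947 ± 0.0296 FPKM in knockout full-grown oocytes and 4.55 ± 0.289 FPKM in control ones, and 1.52 ± 0.300 and 10.5 ± 2.33 FPKM in the corresponding zygotes (SD, n = 2 each). At 48 h it averaged 1.58 ± 0.223 FPKM in the knockout and 48.1 ± 7.19 FPKM in 2-cell controls. In growing oocytes it averaged 3.44 ± 0.329 FPKM in the knockout and 5.51 ± 1.66 FPKM in the control, and in spindle-transfer embryos 16.7 ± 1.90 and 17.7 ± 0.805 FPKM, and neither difference passed limma's test (adjusted p = 0.8 and 0.93). The summed FPKM of 8 oocyte marker genes was 16314 and 16479 in knockout zygotes, against 7426 and 6717 in control zygotes, and 17342 and 14442 in 48 h knockout embryos, against 290 and 260 in 2-cell controls. All 8 were at 1 FPKM or more in every full-grown oocyte, zygote and 48 h knockout library. Similar sums of the 2 knockout zygote libraries held unequal markers, with H1foo at 9363 and 7515 FPKM, Zp3 at 1103 and 2534 FPKM and Zp2 at 156 and 373 FPKM. The summed FPKM of 4 genes of 2-cell embryos was 7.18 and 36.0 in 48 h knockout embryos, against 114 and 88.0 in 2-cell controls. The sum of 10 granulosa cell genes was 18.4 to 41.6 FPKM in full-grown oocytes, zygotes and 48 h embryos of both genotypes, and 0.488 to 1.76 FPKM in growing oocytes. Cyp19a1 had 23.4 and 19.6 FPKM in knockout and 15.4 and 13.6 FPKM in control full-grown oocytes. It had 10.6 to 20.1 FPKM in zygotes of both genotypes and 48 h knockout embryos, and 0 and 0.218 FPKM in 2-cell controls. Beside Cyp19a1, similar sums held different genes. In full-grown oocytes limma called Inha and Cyp11a1 lower and Fshr higher in the knockout, with Inha at 0.816 and 0.519 FPKM in knockout oocytes, against 14.8 and 15.1 FPKM in control ones, and Fshr at 9.49 and 8.25 FPKM in knockout oocytes, against 0.415 and 0.180 FPKM in control ones. In 2-cell controls Nr5a2 alone had 33.9 and 36.8 FPKM of sums of 34.8 and 37.3 FPKM. Amh and Foxl2, defining genes of granulosa cells, were under 1 FPKM in each of these 12 libraries. All 6 marker genes of 8-cell embryos were at 1 FPKM or more in each spindle-transfer library. What part such shifts have in the results on the machinery was not tested.

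The transcripts of the machinery were a small and similar share of all FPKM in most libraries and a larger share in control 2-cell embryos. The 84 genes took 3.06% and 3.13% of all FPKM in the 2 control 2-cell libraries and 1.17% to 1.69% in the other 18 Setd2 libraries. Taf9, a histone-fold TFIID factor also found in SAGA, made up 16.0% and 16.6% of the members' FPKM in those 2-cell libraries and 3.76% to 8.21% elsewhere. Its exons overlap those of Ak6 on the same strand, so reads of these genes may be mixed. Without Taf9 the members took 2.57% and 2.61% of all FPKM in control 2-cell embryos and 1.07% to 1.63% elsewhere. The tables of growing oocytes and of spindle-transfer embryos were normalised apart from the table of the other stages, so levels across tables are side by side only.

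Which genes stood highest changed with stage. Polr2d, which forms the polymerase stalk with Polr2g, averaged 1229.8 ± 153 FPKM in knockout and 1116 ± 98.1 FPKM in control full-grown oocytes (SD, n = 2 each) and headed the members in both, with Polr2j, a core assembly subunit, next. Knockout zygotes had Gtf2b first at 610.1 ± 47.5 FPKM, followed by Polr2d at 552 ± 289.8 FPKM. In control zygotes 3 of the 5 highest members were Mediator genes, Med27 at 660.3 ± 18.7, Med10 at 491 ± 10.4 and Med30 at 473 ± 31.2 FPKM. In 48 h knockout embryos the order was Polr2d at 874 ± 115 FPKM, Polr2j at 703 ± 6.46 FPKM and Gtf2b at 686 ± 95.1 FPKM, and in control 2-cell embryos it was Taf9 at 2216 ± 172 FPKM, Polr2f at 1649 ± 62.1 FPKM and Polr2j at 1481 ± 129 FPKM. Neighbours in these orders often lay within each other's spread, as Med10 and Med30 did in control zygotes.

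The polymerase genes had transcripts at very unequal levels. Polr2a, which encodes the catalytic subunit and its repeated tail, had the lowest FPKM of the 13 polymerase genes in 18 of the 20 Setd2 libraries, between 1.26 and 9.83 FPKM. In the other 2, the first control zygote library and the first 48 h knockout library, the lowest was Polr2m, which encodes a polymerase-associated protein. The highest polymerase gene in these libraries was Polr2j, Polr2d, Polr2c or Polr2f, at 342 to 1692 FPKM. The 13 genes made up 20.5% and 21.1% of the members' FPKM in control zygotes, below the range of 25.3% to 45.5% in every other Setd2 library. The 30 Mediator genes made up 46.0% and 47.3% in control zygotes and 25.9% to 38.4% in the others. Across the 83 members with an annotated transcript, FPKM and transcript length ran in opposite directions in every library, with Spearman coefficients of -0.57 to -0.28, given as a description because the members share library and protocol.

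**Figure D1:**
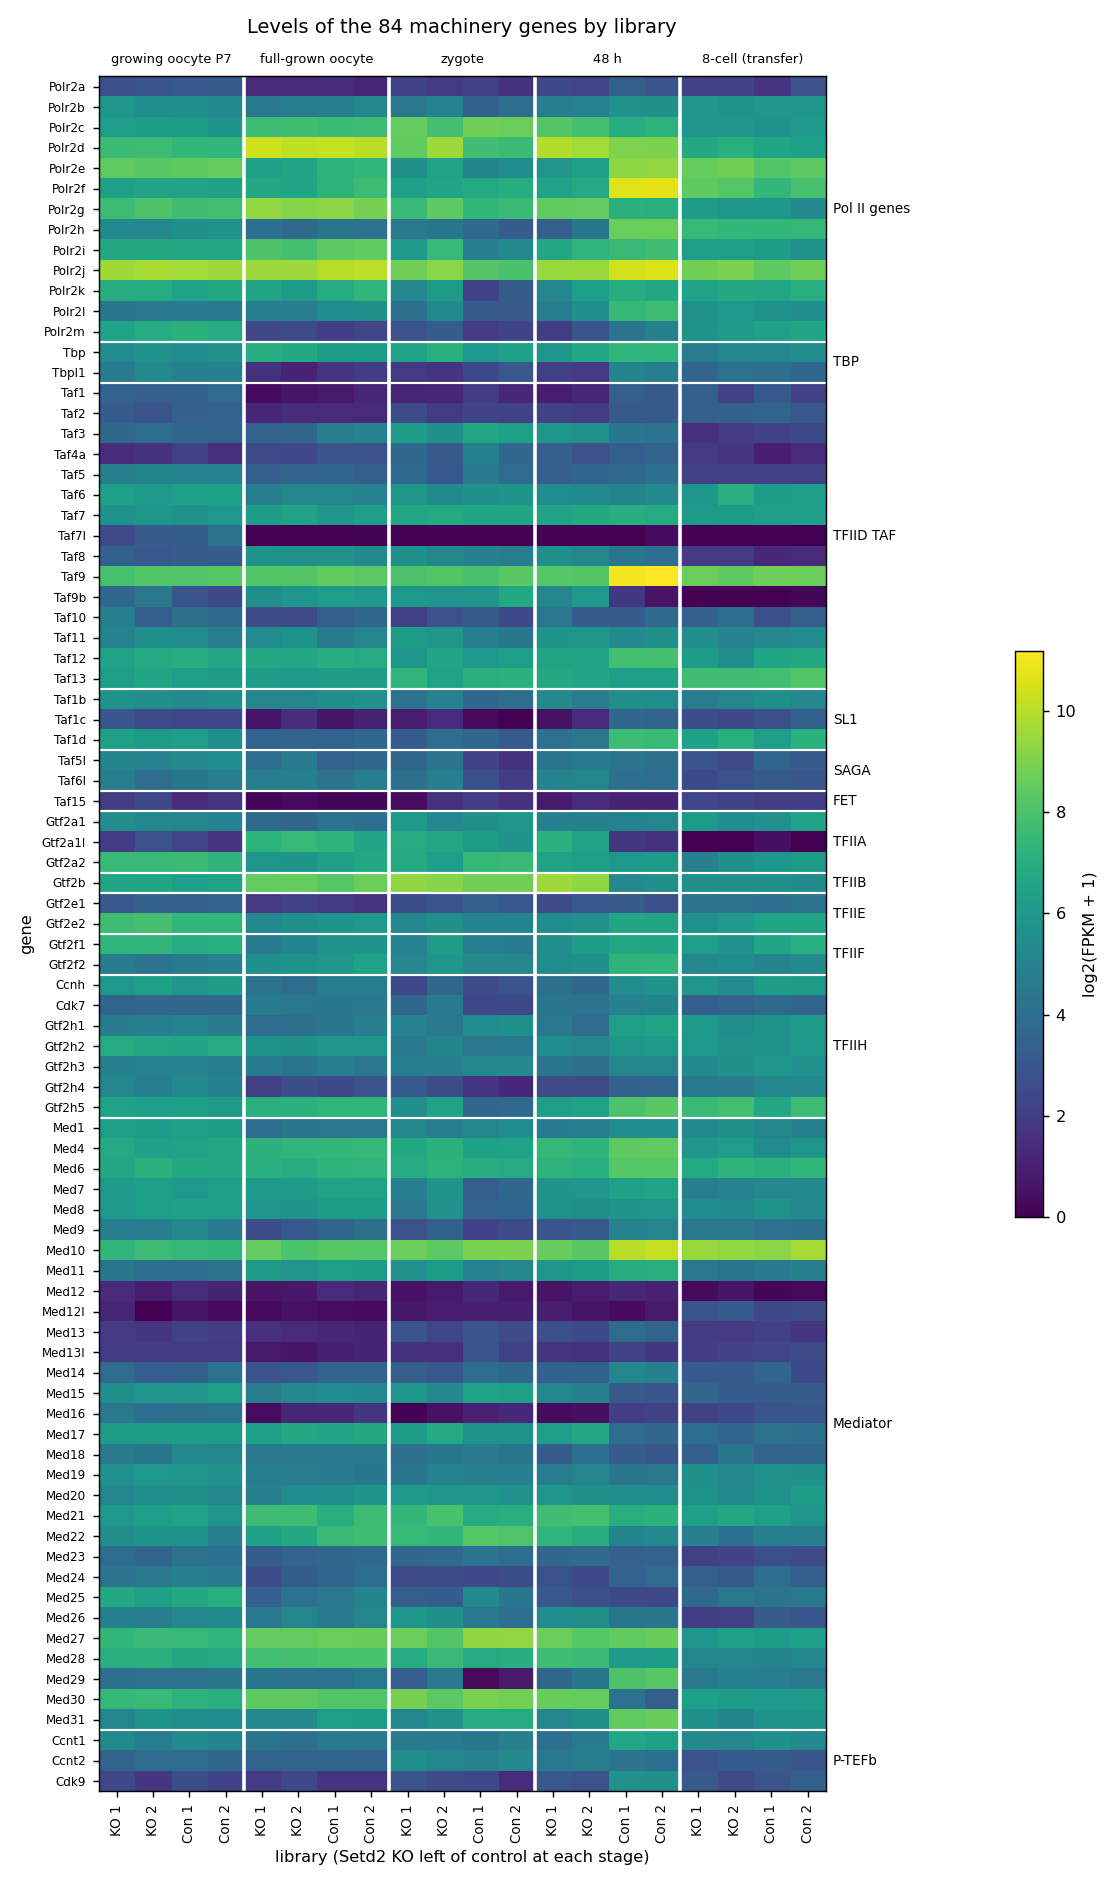
Each line is 1 of the 84 genes, grouped by role, and each column 1 of the 20 Setd2 libraries, knockout left of control within a stage, with color for log2(FPKM + 1). In the line of Polr2h, for example, the 48 h knockout columns are at 9.47 and 19.4 FPKM and the 2-cell control columns at 398 and 398 FPKM.

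Changes are given below as relative log2 changes, which are differences of mean log2(FPKM + 1) less the median difference of all genes tested, ± SE. That median was -0.19 for knockout against control full-grown oocytes, 0.01 for zygotes and 0.43 for 48 h embryos, -0.06 for control zygotes against control full-grown oocytes and -0.34 for control 2-cell embryos against control zygotes. A gene was called when limma's test of its unshifted change passed an adjusted p of 0.05 over all genes of the table, and a gene entered the test if 2 or more libraries held it at 1 FPKM or above. Of the 84 members 82 were tested in the table of full-grown oocytes, zygotes and 48 h embryos, where Med12l and Taf7l were under that level. In growing oocytes Med12l was under it, and in spindle-transfer embryos Gtf2a1l, Med12, Taf7l and Taf9b were. With 2 libraries against 2 an exact permutation test of 1 gene cannot go below p = 0.333. Every call therefore rests in part on the variance that limma shares across genes. In the table of full-grown oocytes, zygotes and 48 h embryos the variance of a gene is also pooled over all groups, beyond those compared.

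In controls, the passage from full-grown oocyte to zygote split the machinery. In control zygotes 24 of the 82 members were higher than in control full-grown oocytes, beside 18.5% of all genes tested, and 31 were lower, beside 24%. Polymerase genes were mostly on the lower side, with 8 lower, 1 higher and 4 not called, and so was TFIIH, with 5 lower and 2 higher. Among TFIID factors 6 of 14 were higher and 2 lower, and Mediator genes divided into 9 higher and 9 lower of 29. The median member changed by -0.19 on the unshifted log2 scale and the median gene by -0.06.

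Polr2k, a small subunit that all 3 nuclear polymerases share, had 3.78 and 8.82 FPKM in control zygotes, against 118 and 158 FPKM in control full-grown oocytes. Med29, a Mediator subunit of animals, had 0.201 and 0.742 FPKM in control zygotes, against 17.2 and 21.6 FPKM in control full-grown oocytes. Gtf2h5, the smallest TFIIH subunit, had 11.8 and 13.5 FPKM in control zygotes, against 157 and 159.9 FPKM in control full-grown oocytes. Both zygote libraries were far below both oocyte libraries for each of the 3 genes. Their relative log2 changes were -4.27 ± 0.43, -3.75 ± 0.37 and -3.49 ± 0.26 (limma, adjusted p = 5.2e-05, 4.7e-05 and 9.2e-06). Polr2i, a subunit known for start-site choice and proofreading, followed with -3.29 ± 0.39, and the Mediator genes Med7 and Med8 with -2.88 ± 0.28 and -2.53 ± 0.31. On the higher side stood Taf3, the TFIID factor whose PHD finger binds trimethylated lysine 4 of histone H3, with 102 and 80.3 FPKM in control zygotes, against 24.8 and 30.4 FPKM in control full-grown oocytes. Its relative log2 change was 1.75 ± 0.24 (limma, adjusted p = 0.00038). Med13, of the Mediator kinase module, rose by 1.69 ± 0.29, the large TFIIA gene Gtf2a1 by 1.67 ± 0.25, the P-TEFb cyclin Ccnt2 by 1.59 ± 0.22 and the TFIID scaffold Taf4a by 1.47 ± 0.38. Cdk7 changed by -1.93 ± 0.26 and Polr2b, the second large catalytic subunit, by -1.15 ± 0.25, while Tbpl1 and Med1 changed by 0.96 ± 0.30 and 0.90 ± 0.22. Polr2a, Tbp, Taf1, Gtf2b and Cdk9 were not called. Tbpl1 and Med1, like Taf4a, lost the call in at least 1 fit that left out 1 library. Of the 55 calls 31 remained in every fit that left out 1 library, and Taf4a was not among them. Without the second control full-grown oocyte library the counts were 11 higher and 23 lower. The higher members had a median transcript of 3084 nt and the lower ones 1717 nt, and length and relative change had a Spearman coefficient of 0.45 over 81 members and 0.41 over all 11355 tested genes with a length.

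Most of the machinery was higher at the 2-cell stage of controls. In control 2-cell embryos 47 of the 82 members were higher than in control zygotes, beside 33.4% of all genes, and 18 were lower, beside 42.7%. Of the 13 polymerase genes 11 rose, and of the 7 TFIIH genes 6 rose and none fell. Both TBP genes, both TFIIF genes, all 3 SL1 genes and both SAGA genes rose, as did 13 of 29 Mediator genes. The genes called lower were all 3 TFIIA genes, the only TFIIB gene, Polr2c, 3 TFIID factors, 9 Mediator genes and Ccnt2. Of these, Gtf2a1, Ccnt2, Med23, Med27, Med28 and Taf13 lost the call under median-ratio rescaling, which gave 52 higher and 12 lower members. Of all 12199 genes tested it gave 4804 higher and 4405 lower, against 4080 and 5205 without rescaling. Gtf2a1 had a relative log2 change of only -0.34. The median member changed by 1.12 on the unshifted log2 scale and the median gene by -0.34.

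The 5 polymerase genes raised most, Polr2h, Polr2l, Polr2e, Polr2k and Polr2f, encode subunits that all 3 nuclear polymerases share. In controls Polr2h had 18.6 and 17.7 FPKM in full-grown oocytes, 13.5 and 8.46 FPKM in zygotes and 398 and 398 FPKM in 2-cell embryos. In controls Polr2f had 153 and 203 FPKM in full-grown oocytes, 112 and 124 FPKM in zygotes and 1605 and 1692 FPKM in 2-cell embryos. Both genes were lowest in zygotes, and their 2-cell libraries were above every other control library of the table. The relative log2 changes against zygotes were 5.43 ± 0.31 for Polr2h and 4.13 ± 0.22 for Polr2f (limma, adjusted p = 6.8e-08 and 4.9e-08). Med29 was lower in zygotes than at the stages on either side, with 17.2 and 21.6 FPKM in full-grown oocytes, 0.201 and 0.742 FPKM in zygotes and 270.2 and 312 FPKM in 2-cell embryos. Its relative log2 change at the 2-cell step was 7.99 ± 0.37 (limma, adjusted p = 1.7e-08), the largest of any member. The control zygote values behind it are below 1 FPKM and rest on few fragments. Cdk9, the kinase of P-TEFb, had 2.21 and 2.19 FPKM in full-grown oocytes, 4.36 and 1.64 FPKM in zygotes and 49.3 and 47.8 FPKM in 2-cell embryos, and rose by 4.06 ± 0.33. The SL1 genes Taf1d and Taf1c rose by 4.50 ± 0.29 and 3.83 ± 0.35. Taf1c had 0.211 and 0 FPKM in control zygotes, so its change is also set against values that rest on few fragments. Polr2a rose by 1.66 ± 0.28, Polr2b by 2.24 ± 0.25, Tbp by 1.48 ± 0.29, Tbpl1 by 2.50 ± 0.30, Taf1 by 1.99 ± 0.28 and Cdk7 by 2.88 ± 0.26, and Med1 was not called.

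Med30, Gtf2b and Gtf2a1l were abundant in control oocytes and low in 2-cell embryos. Med30, a Mediator subunit of animals, had 294 and 282 FPKM in full-grown oocytes, 495 and 451 FPKM in zygotes and 17.0 and 9.56 FPKM in 2-cell embryos in controls. Gtf2b, the gene of TFIIB, which positions the polymerase at the start site, had 302 and 409 FPKM in full-grown oocytes, 436 and 437 FPKM in zygotes and 37.7 and 45.6 FPKM in 2-cell embryos. Gtf2a1l, the germ cell form of the large TFIIA subunit, had 152 and 98.4 FPKM in full-grown oocytes, 67.8 and 53.9 FPKM in zygotes and 2.54 and 2.01 FPKM in 2-cell embryos. In all 3 cases both 2-cell libraries were below every other control library of the table. The relative log2 changes were -4.76 ± 0.25, -3.03 ± 0.20 and -3.90 ± 0.27 (limma, adjusted p = 1.8e-08, 6.8e-08 and 1.2e-07). Taf9b, the close relative of Taf9, changed by -4.77 ± 0.43, and Med15 and Med25, Mediator tail subunits that activators contact, by -3.03 ± 0.25 and -2.08 ± 0.37. Polr2c was the 1 polymerase gene lower in 2-cell embryos, at 121 and 149 FPKM, against 434 and 395 FPKM in control zygotes. Of the 65 calls 58 remained in every fit that left out 1 library. The higher members had a median transcript of 1962 nt and the lower ones 3458 nt, with a Spearman coefficient of length and change of -0.35 over the members and -0.16 over all genes.

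**Figure D2:**
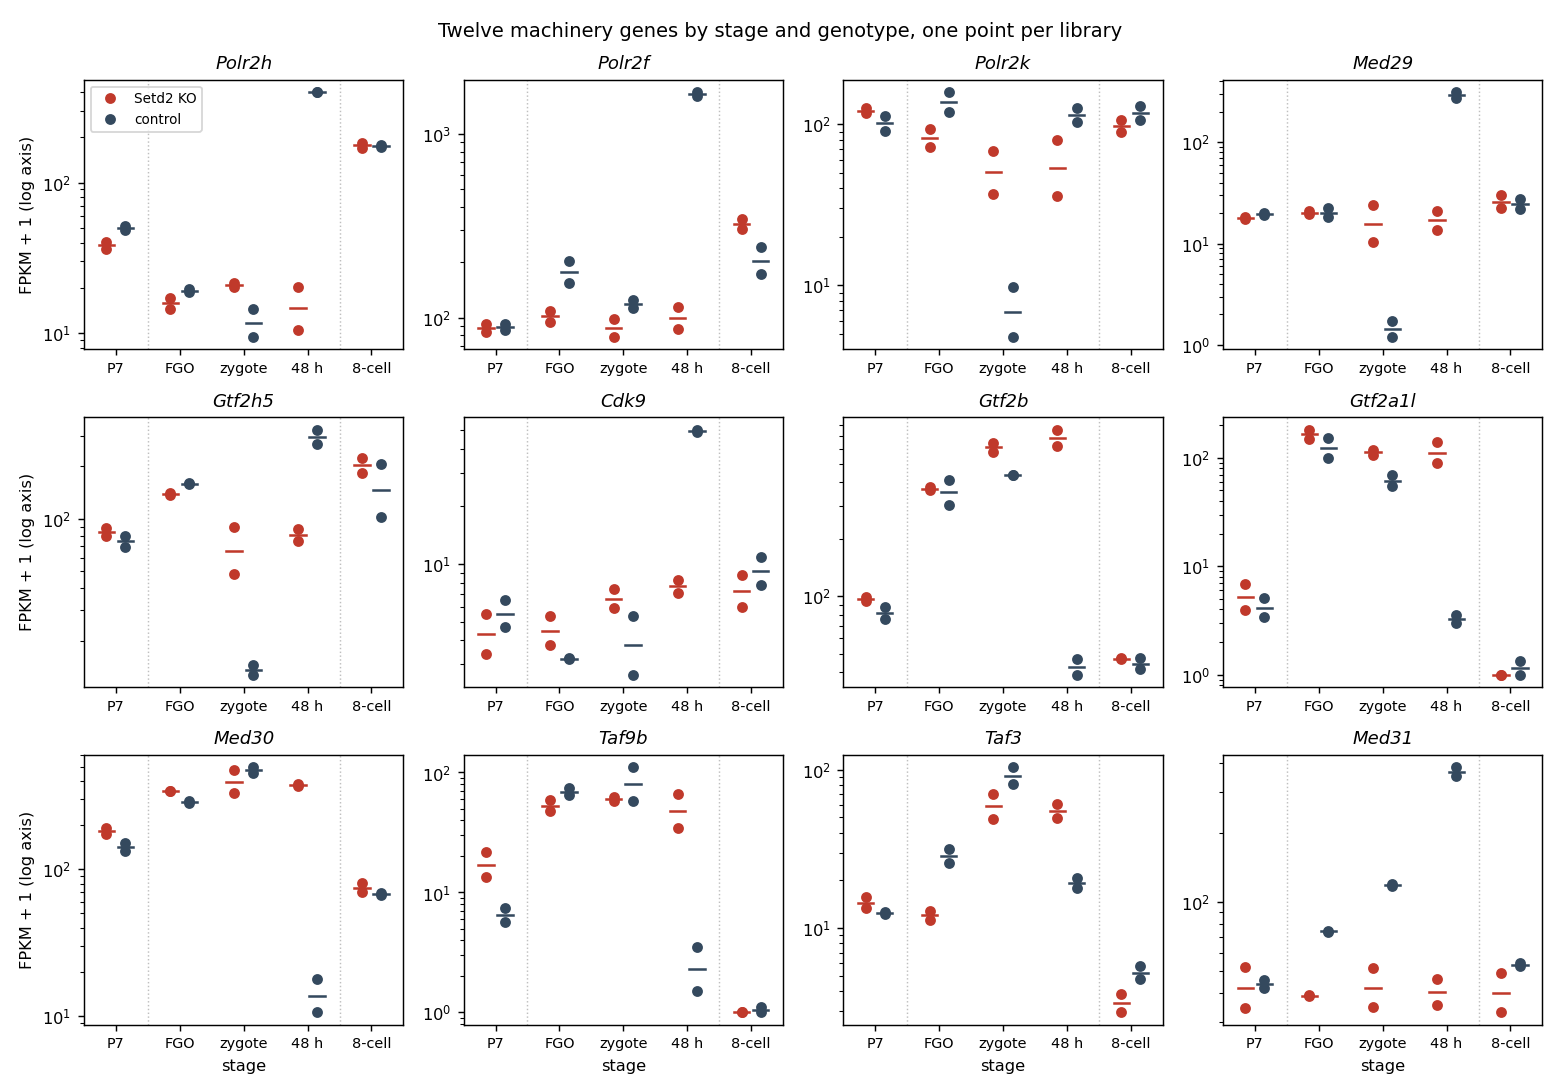
FPKM + 1 on a log axis for 12 genes at the 5 stages of the Setd2 comparison, with a point for each library, knockout left of control, and a bar at the mean of the log values. At 48 h the knockout points of Polr2h, Polr2f, Med29, Cdk9 and Med31 lie below the 2-cell controls and those of Gtf2b, Gtf2a1l, Med30 and Taf9b above them.

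Few members differed between the genotypes in full-grown oocytes. Knockout full-grown oocytes had 0 members called higher, beside 2.02% of all genes tested, and 3 called lower, beside 4.89%, by limma, while 18 members had an unadjusted p under 0.05, beside 24.7%. Taf3 had 10.3 and 11.8 FPKM in knockout full-grown oocytes, against 24.8 and 30.4 FPKM in control full-grown oocytes. Med22, from the head of Mediator, had 83.0 and 112 FPKM in knockout full-grown oocytes, against 188 and 211 FPKM in control full-grown oocytes. Med31, from its middle, had 37.7 and 38.0 FPKM in knockout full-grown oocytes, against 73.7 and 72.7 FPKM in control full-grown oocytes. For each of the 3 genes both knockout libraries were below both controls. The relative log2 changes were -1.05 ± 0.24, -0.85 ± 0.21 and -0.74 ± 0.22 (limma, adjusted p = 0.017, 0.02 and 0.03). Tbp itself had 126 and 110.2 FPKM in knockout full-grown oocytes, against 68.1 and 66.7 FPKM in control full-grown oocytes, and its relative log2 change of 0.99 ± 0.29 did not pass (limma, adjusted p = 0.12). Polr2a, Polr2b, Tbpl1, Taf1, Gtf2b, Med1, Cdk7 and Cdk9 were not called either. No call of the 3 remained in every fit that left out 1 library: without the first or second control library or the first knockout library no member was called, and without the second knockout library 1 was. With median-ratio or quantile rescaling 1 member, Taf11, was higher and 1 was lower, Taf3 under the first and Med22 under the second. Of all genes tested 439 were higher and 262 lower under the first, and 401 and 298 under the second.

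More members were called above than below control levels in knockout zygotes, and the same held over all genes tested. Compared with control zygotes, 21 members were higher, beside 18.5% of all genes, and 10 were lower, beside 13.1%. Polymerase genes gave 6 higher and none lower of 13, both SAGA genes were higher, and TFIIH gave 3 higher and 1 lower of 7. Mediator gave 8 higher and 7 lower of 29, and 1 of 14 TFIID factors, Taf11, was higher. No TFIIB, TFIIE, TFIIF, SL1 or P-TEFb gene was called. The median member changed by 0.19 on the unshifted log2 scale and the median gene by 0.01.

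Med29 had 9.29 and 22.8 FPKM in knockout zygotes, against 0.201 and 0.742 FPKM in control zygotes. Polr2k had 36.1 and 66.9 FPKM in knockout zygotes, against 3.78 and 8.82 FPKM in control zygotes. Gtf2h5 had 47.1 and 88.8 FPKM in knockout zygotes, against 11.8 and 13.5 FPKM in control zygotes. In each case both knockout libraries lay above both controls, and the second knockout library lay above the first. The relative log2 changes were 3.42 ± 0.37, 2.86 ± 0.43 and 2.26 ± 0.26 (limma, adjusted p = 0.00015, 0.00096 and 0.00022). The fold of Med29 is set against control values below 1 FPKM. Taf5l, the SAGA relative of Taf5, had 11.9 and 18.3 FPKM in knockout zygotes, against 3.47 and 2.06 FPKM in control zygotes, and changed by 2.08 ± 0.30. Taf6l, the SAGA relative of Taf6, had 16.5 and 26.6 FPKM in knockout zygotes, against 5.64 and 3.20 FPKM in control zygotes, and changed by 2.05 ± 0.30. Both knockout libraries lay above both controls for these genes too. Cdk7, the TFIIH kinase, had 12.6 and 23.1 FPKM in knockout zygotes, against 4.44 and 4.40 FPKM in control zygotes, with a relative log2 change of 1.72 ± 0.26 (limma, adjusted p = 0.00088). Polr2b changed by 0.96 ± 0.25. On the lower side Med31 had 33.8 and 50.3 FPKM in knockout zygotes, against 119 and 116 FPKM in control zygotes, and changed by -1.50 ± 0.22 (limma, adjusted p = 0.00078). Med25 changed by -1.57 ± 0.37, Med13l by -0.99 ± 0.27 and Tbpl1, the TBP relative, by -0.96 ± 0.30. Polr2a had 3.80 and 2.77 FPKM in knockout zygotes, against 3.33 and 2.08 FPKM in control zygotes, which overlap, and Tbp, Taf1, Gtf2b, Med1 and Cdk9 were not called (limma, adjusted p from 0.089 to 0.59 with Polr2a).

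These zygote counts depend on the fit. With the 4 zygote libraries fitted alone limma called 0 of all 12199 genes tested, so 0 members. At an unadjusted p under 0.05 stood 3624 of all genes and 26 of the 82 members. Counts were 18 without the second knockout zygote library, 20 without the first control zygote library and 41 without the first knockout zygote library. Of the 31 calls 16 remained in every fit that left out 1 library, and Polr2b, Polr2i, Med25, Med13l and Tbpl1 were not among them. Quantile normalization gave 17 higher and 15 lower members, and 1968 higher and 2233 lower of all genes. Of the 8 oocyte markers 6 were higher and 0 lower in knockout zygotes by the same test, and their part in these values was not tested. The members that were higher had a median transcript of 1679 nt, those that were lower 3141.5 nt, and length and relative change had a Spearman coefficient of -0.34 over 81 members and -0.23 over all 11355 tested genes with a length.

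**Figure D3:**
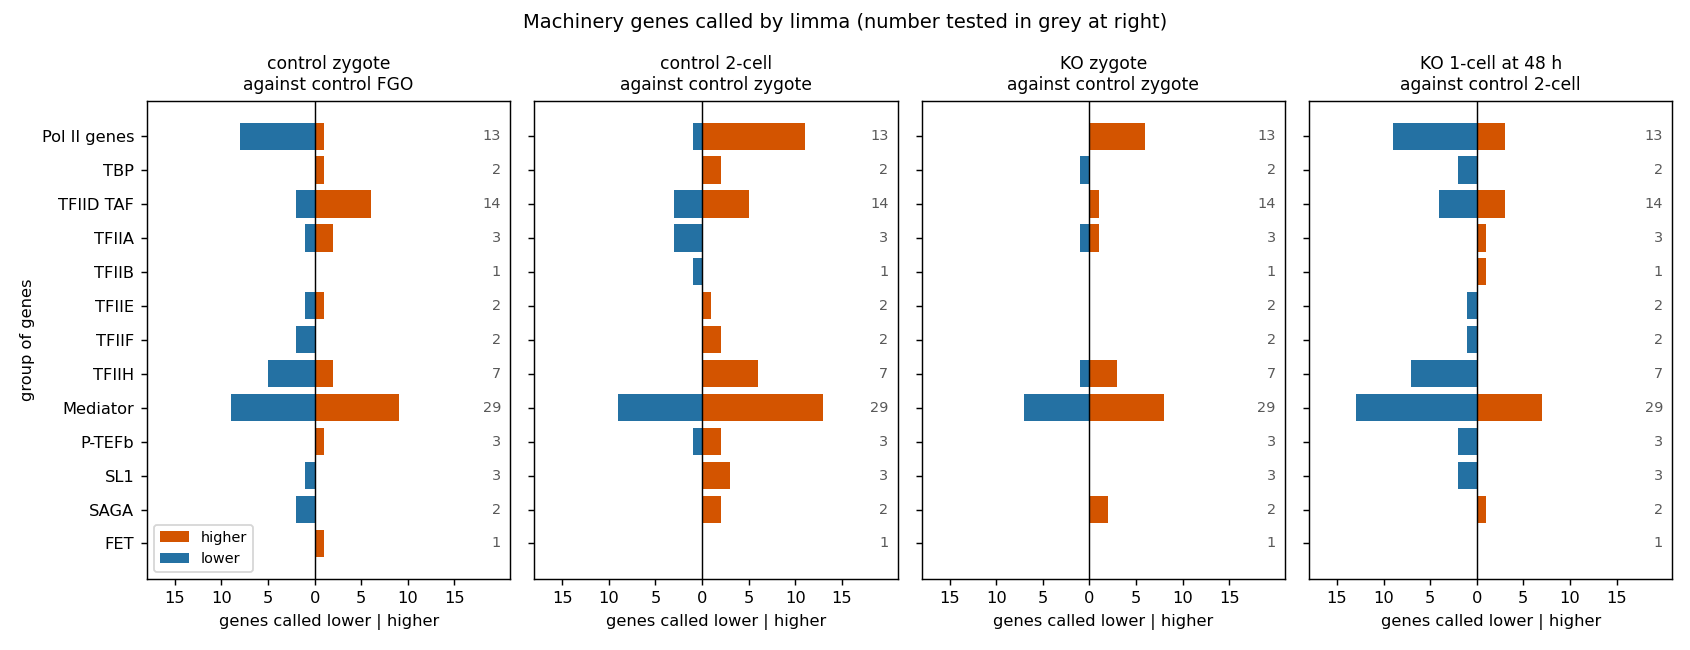
Counts of members called higher and lower by limma, by role, for control zygotes against control full-grown oocytes, control 2-cell embryos against control zygotes, knockout against control zygotes and 48 h knockout against 2-cell control embryos. Polymerase genes give 1 higher and 8 lower, 11 and 1, 6 and 0, and 3 and 9 in these comparisons.

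Knockout embryos at 48 h, which were 1-cell, had lower levels of many members than 2-cell controls. Against those controls 41 of the 82 members were lower, beside 30.6% of all genes, and 16 were higher, beside 43.2%. All 7 TFIIH genes, both TBP genes and 9 of 13 polymerase genes were lower, as were 13 of 29 Mediator genes, 4 of 14 TFIID factors and 2 of 3 P-TEFb genes. Of these, Cdk7, Gtf2h2, Gtf2h4, Tbp, Polr2a, Polr2b, Polr2k, Med7 and Med24 lost the call in at least 1 fit that left out 1 library. The higher members included the TFIIB gene, Gtf2a1l, 7 Mediator genes, 3 TFIID factors and 3 polymerase genes. Among the higher members Polr2c, Polr2d, Med21, Med26, Taf6l and Taf8 lost the call under median-ratio rescaling. The median member changed by -0.67 on the unshifted log2 scale and the median gene by 0.43.

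Polr2h had 9.47 and 19.4 FPKM in 48 h knockout embryos, against 398 and 398 FPKM in 2-cell controls. Polr2f had 85.8 and 114 FPKM in 48 h knockout embryos, against 1605 and 1692 FPKM in 2-cell controls. Cdk9 had 7.27 and 6.07 FPKM in 48 h knockout embryos, against 49.3 and 47.8 FPKM in 2-cell controls. The knockout libraries of all 3 genes stood near the zygote levels and far below the 2-cell controls. Their relative log2 changes were -5.20 ± 0.31, -4.48 ± 0.22 and -3.13 ± 0.33 (limma, adjusted p = 1.3e-07, 3.6e-08 and 2.3e-05). Med29 had 12.6 and 20.2 FPKM in 48 h knockout embryos, against 270.2 and 312 FPKM in 2-cell controls, and changed by -4.53 ± 0.37. Taf9 had 309 and 288 FPKM in 48 h knockout embryos, against 2095 and 2338 FPKM in 2-cell controls, and changed by -3.32 ± 0.18, with the reads of Ak6 in question as above. Med31 changed by -3.61 ± 0.22, Tbpl1 by -3.35 ± 0.30 and Taf1, the largest TFIID subunit, by -2.63 ± 0.28. Smaller decreases were called for Tbp, Polr2a and Polr2b, at -1.47 ± 0.29, -1.22 ± 0.28 and -1.17 ± 0.25 (limma, adjusted p = 0.0068, 0.024 and 0.019). Tbp was not called without the first 48 h knockout library, Polr2a without the second knockout or the first control library, and Polr2b without the first knockout library or either control library. Cdk7 and Med1, which contacts nuclear receptors, changed by -1.09 ± 0.26 and -1.19 ± 0.22. The call of Cdk7 did not remain in every fit that left out 1 library, and that of Med1 did.

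The members most raised in the 48 h knockout were low in 2-cell controls. Gtf2b had 754 and 619 FPKM in 48 h knockout embryos, against 37.7 and 45.6 FPKM in 2-cell controls. Gtf2a1l had 139 and 88.5 FPKM in 48 h knockout embryos, against 2.54 and 2.01 FPKM in 2-cell controls. Med30 had 382 and 370.0 FPKM in 48 h knockout embryos, against 17.0 and 9.56 FPKM in 2-cell controls. Every knockout library of these genes stood within the range seen in oocytes and zygotes or above it, and both 2-cell controls stood far below. The relative log2 changes were 3.58 ± 0.20, 4.67 ± 0.27 and 4.34 ± 0.25 (limma, adjusted p = 2.4e-08, 3.7e-08 and 3.4e-08). Taf9b had 33.6 and 65.4 FPKM in 48 h knockout embryos, against 2.50 and 0.511 FPKM in 2-cell controls, and changed by 3.95 ± 0.43. Med17, a Mediator head subunit, Med22 and Med15 changed by 2.23 ± 0.26, 1.61 ± 0.21 and 1.58 ± 0.25. Of the 57 calls 45 remained in every fit that left out 1 library. Median-ratio rescaling gave 10 higher and 53 lower members. Of all 12199 genes tested it gave 4354 higher and 4619 lower, against 5270 and 3727 without rescaling. All 8 oocyte markers were higher in the 48 h knockout by the same test.

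**Figure D4:**
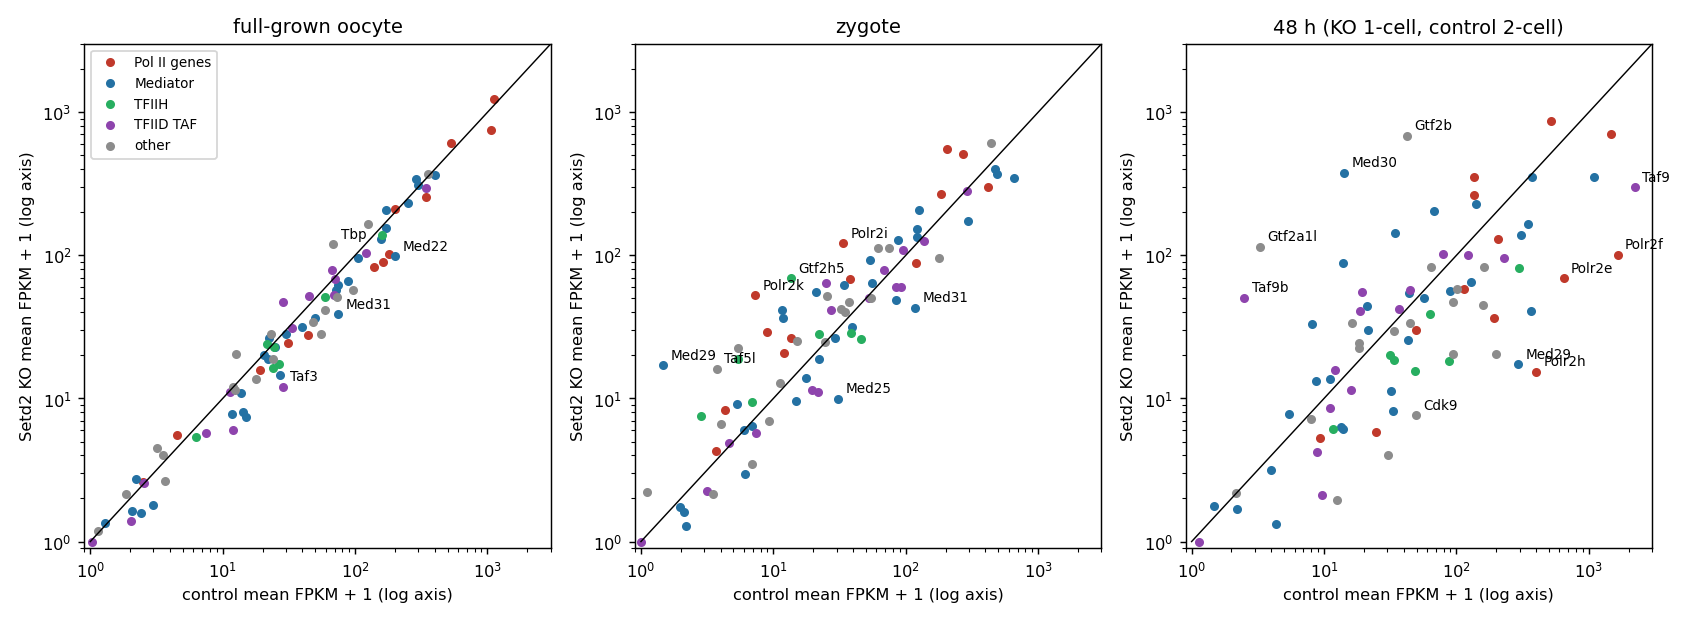
Mean FPKM + 1 of each member in knockout libraries against control libraries of the same stage, on log axes, with color for polymerase, Mediator, TFIIH and TFIID genes, grey for the rest, and the diagonal for equal values. Members lie near the diagonal in full-grown oocytes, spread in zygotes, and at 48 h range from Polr2h at 14.4 FPKM in the knockout and 398 FPKM in the control to Gtf2a1l at 114 and 2.27 FPKM.

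Fewer members, and fewer of all genes, were called between the stages of the knockout than between those of the control. Knockout zygotes had 11 members (13.4%) higher than knockout full-grown oocytes, beside 12.6% of all genes. In them 5 members (6.1%) were lower, beside 5.1%, so both shares were close to the background. Of all genes 17.7% were called either way at this step in the knockout and 42.5% in the control. Taf3 had 10.3 and 11.8 FPKM in full-grown oocytes, 69.4 and 47.9 FPKM in zygotes and 60.1 and 48.9 FPKM in 48 h embryos in the knockout, and its relative log2 change from oocyte to zygote was 2.20 ± 0.24 (limma, adjusted p = 0.00092). Gtf2b and Med1 were among the higher members, and the other core genes Polr2a, Polr2b, Tbp, Tbpl1, Taf1, Cdk7 and Cdk9 were not called. Gtf2a1 changed by 1.76 ± 0.25, Ccnt2 by 1.64 ± 0.22, and the stalk genes Polr2d and Polr2g by -1.34 ± 0.30 and -1.33 ± 0.26. Taf3, Gtf2a1 and Ccnt2 were the 3 of 16 calls that remained in every fit that left out 1 library. The count was 3 without the first knockout full-grown oocyte library, 7 without the second, 5 without the first knockout zygote library, 29 without the second, and 0 when the compared groups were fitted alone (16 at an unadjusted p under 0.05), and median-ratio rescaling gave 4 higher and 10 lower. With the compared groups alone 0 of all 12199 genes were called at the knockout oocyte to zygote step, and 3277 had an unadjusted p under 0.05. Under median-ratio rescaling 883 of all genes were higher and 1219 lower there. Between knockout zygotes and 48 h knockout embryos limma called 0 members, with 9 at an unadjusted p under 0.05, beside 0.205% of all genes called and 10.2% at that unadjusted p. Leaving out the second knockout zygote library gave 4 calls. The smallest p was that of Ccnt2, with a relative log2 change of -0.72 ± 0.22 (limma, adjusted p = 0.32), and Taf10, Gtf2h3, Gtf2a1 and Polr2j came next. The 9 core genes changed by -0.48 ± 0.29 (Tbp) to 0.29 ± 0.28 (Polr2a) at this step.

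The difference between genotypes in these steps was tested as an interaction. For the step from oocyte to zygote, 17 members had a higher change in the knockout than in the control, beside 8.29% of all genes, and 0 had a lower one, beside 1.1%, while 26 passed an unadjusted p of 0.05, beside 24.9%. They were 6 polymerase genes, 6 Mediator genes, 3 TFIIH genes, Taf6l and Gtf2f1. Of the core genes Polr2b and Cdk7 were among them. Polr2k, Med29, Gtf2h5 and Med7 were the 4 that remained in every fit that left out 1 library, and counts were 4 to 26 in those fits. The count was 4 without the second control or the first knockout full-grown oocyte library, 7 without the first control one and 8 without the second knockout one. It was 8 without the second control zygote library, 10 without the first control or the second knockout zygote library and 26 without the first knockout zygote library. For the step from zygote to 48 h, 44 members had a lower change in the knockout, beside 29.5% of all genes, and 14 a higher one, beside 36.7%. The lower ones held 10 of 13 polymerase genes, 6 of 7 TFIIH genes, 12 of 29 Mediator genes and all 3 SL1 genes. Of the core genes Gtf2b had a higher change, Med1 was not called and the other 7 had a lower one. These comparisons share libraries with those above and are no independent evidence of them.

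Several members have a close relative in or near the machinery, and the share each took of the pair varied with stage. Gtf2a1l made up 92.8% ± 1.48 of the summed FPKM of Gtf2a1l and Gtf2a1 in knockout and 87.8% ± 2.76 in control full-grown oocytes (SD, n = 2 each), and 69.7% ± 6.17 and 53.2% ± 7.87 in the zygotes. At 48 h it made up 79.4% ± 4.87 in the knockout and 6.51% ± 1.42 in the 2-cell controls. In growing oocytes, from a table of their own, its share was 10.1% ± 5.67 in the knockout and 8.96% ± 2.23 in the control. Taf9b made up 14.2% ± 6.15 of its pair with Taf9 in 48 h knockout embryos and 0.0706% ± 0.0690 in 2-cell controls. Ccnt2 made up 55.0% ± 2.41 of the cyclin T pair in 48 h knockout embryos and 15.7% ± 0.511 in 2-cell controls. Taf5l made up 59.1% ± 16.5 of its pair with Taf5 in knockout zygotes and 12.9% ± 0.219 in control zygotes. Tbpl2, a TBP relative of oocytes that is no member, had 19.0 and 19.6 FPKM in 48 h knockout embryos, against 0 and 0.201 FPKM in 2-cell controls. Taf7l, known from the testis, was above 10% of its pair with Taf7 in growing oocytes only, with 10.5% ± 1.98 in the knockout and 18.5% ± 5.43 in the control. Med12l made up 95.2% ± 2.04 of its pair with Med12 in Setd2-/- and 96.6% ± 0.110 in Setd2+/- spindle-transfer embryos, where Med12 itself was under 1 FPKM on average.

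**Figure D5:**
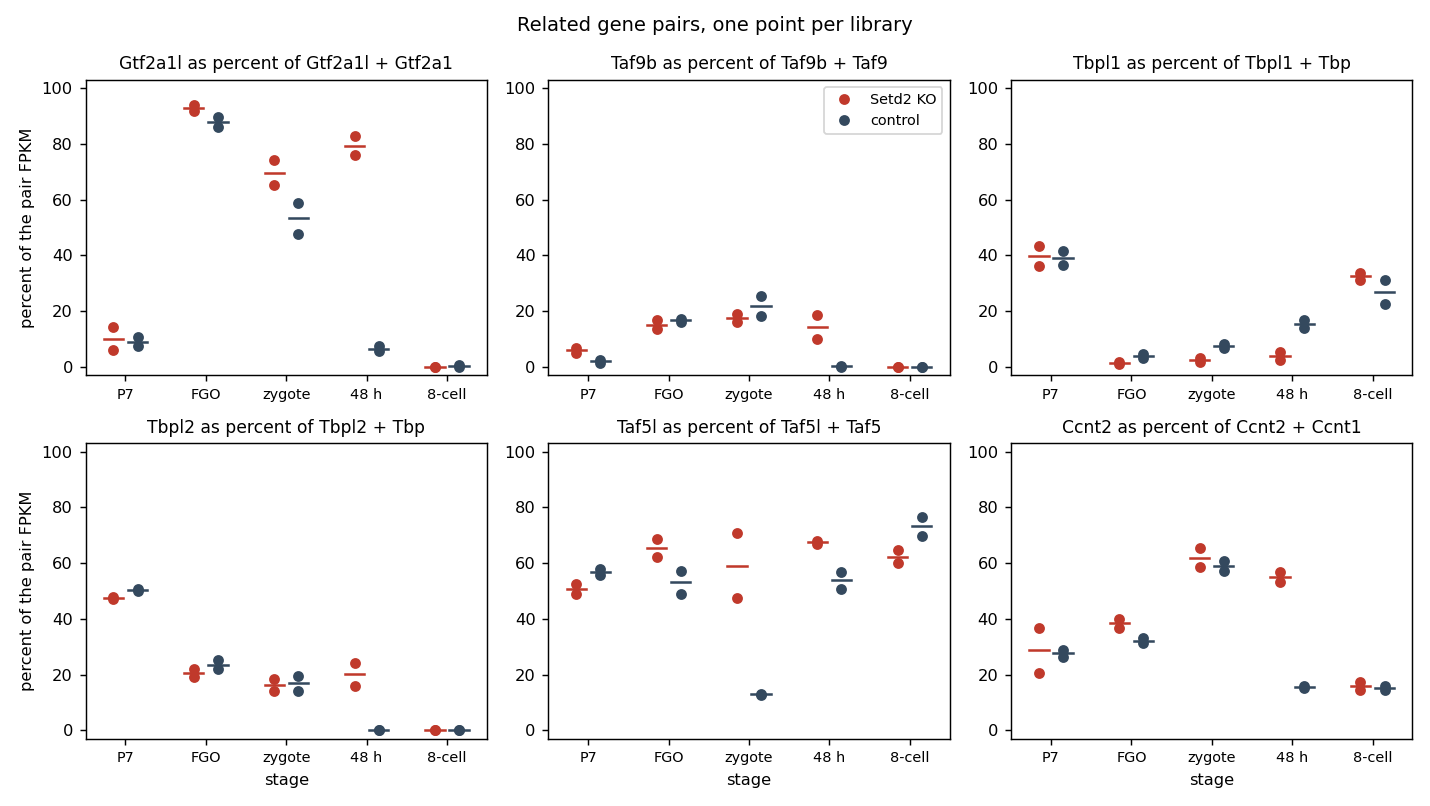
Percent of the summed FPKM of a related pair taken by the first gene, for 6 pairs, in each Setd2 group with a point for each library and knockout left of control. At 48 h the Gtf2a1l share is 79.4% in the knockout and 6.51% in the control, and groups from different tables are side by side only.

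In growing oocytes no member was called between the genotypes. Knockout growing oocytes had 0 of 83 tested members called by limma, beside 0.0834% of all genes, with 6 members at an unadjusted p under 0.05, beside 8.04%. Taf9b had the smallest p and 12.4 and 20.7 FPKM in knockout growing oocytes, against 6.44 and 4.72 FPKM in control growing oocytes, so that both knockout libraries were above both controls. Its relative log2 change was 1.43 ± 0.35 (limma, adjusted p = 0.28). Med18, a Mediator head subunit, was next at -0.69 ± 0.22, followed by the general factor genes Gtf2e2 and Gtf2f1 at 0.46 ± 0.15 and 0.45 ± 0.15 and by Med30 at 0.40 ± 0.15. Among the 9 core genes relative log2 changes ran from -0.32 ± 0.34 for Polr2a to 0.33 ± 0.21 for Polr2b. Polr2j averaged 818 ± 48.7 FPKM in knockout and 781 ± 38.6 FPKM in control growing oocytes (SD, n = 2 each) and was the highest member in both.

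Spindle-transfer embryos likewise gave no call. Setd2-/- 8-cell embryos had 0 of 80 tested members called by limma, beside 0% of all genes, with 8 members at an unadjusted p under 0.05, beside 13.2%. The smallest p was that of the TFIIE gene Gtf2e2, at 49.4 and 63.1 FPKM in Setd2-/- embryos, against 91.1 and 93.0 FPKM in Setd2+/- embryos, with a relative log2 change of -0.64 ± 0.21 (limma, adjusted p = 0.29). Gtf2f1, Taf12, Polr2f and Gtf2h4 came next at -0.80 ± 0.27, -0.77 ± 0.27, 0.73 ± 0.22 and -0.58 ± 0.23. The core genes lay between -0.33 ± 0.25 for Tbp and 0.55 ± 0.23 for Med1. Polr2f had 345 and 301 FPKM in Setd2-/- embryos, against 171 and 242 FPKM in Setd2+/- embryos, and Gtf2a1l was at or near 0 in both groups. Med10, of the Mediator middle module, was the highest member in both, at 687 ± 38.4 and 713 ± 156 FPKM (SD, n = 2 each).

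In the Dnmt3l pair, which has no replicate check, no member reached a 2-fold difference. Dnmt3l, the gene of a cofactor of DNA methylation, had 25.0 FPKM in the library labelled Dnmt3l_KO, against 31.7 FPKM in the library labelled Dnmt3l_Con, so the level of its own transcript does not check these labels. Of 74 members that reached 1 FPKM in either library 0 were 2-fold higher in the library labelled Dnmt3l_KO, beside 0.906% of all such genes, and 0 were 2-fold lower, beside 1.04%. The largest log2 difference was 0.75 for Gtf2a1, at 108 FPKM in the library labelled Dnmt3l_KO, against 63.8 FPKM in the library labelled Dnmt3l_Con. Taf3 had 23.1 FPKM in the library labelled Dnmt3l_KO, against 13.5 FPKM in the library labelled Dnmt3l_Con, a log2 difference of 0.73.

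Relatives of the machinery outside the 84 genes were counted with the same test. Of 58 such genes 7 were higher and 37 lower in 48 h knockout embryos than in 2-cell controls, and 37 were higher and 7 lower in 2-cell controls than in control zygotes. All genes tested gave 43.2% higher and 30.6% lower in the first comparison and 33.4% and 42.7% in the second. Among 15 further subunits of RNA polymerases I and III, 0 were higher and 11 lower in the 48 h knockout, and 13 were higher and 0 lower at the control 2-cell step. Of 5 genes of the pausing factors NELF and DSIF 1 was higher and 4 were lower in the 48 h knockout, and of 14 PAF1 and elongation genes 1 was higher and 10 were lower. Of 12 kinases and partners acting on the polymerase tail or on paused polymerase 3 were higher and 7 lower, of 7 tail phosphatase and polymerase assembly genes 1 was higher and 4 were lower, and of 5 other TFIIH and CDK8 module genes 1 was higher and 1 lower. Supt5, the DSIF subunit, had 11.3 and 11.6 FPKM in 48 h knockout embryos, against 73.1 and 53.8 FPKM in 2-cell controls, and changed by -2.79 ± 0.25. Supt6 had 6.57 and 3.68 FPKM in 48 h knockout embryos, against 13.2 and 13.7 FPKM in 2-cell controls, and changed by -1.71 ± 0.33. At the control 2-cell step Supt5 rose by 2.95 ± 0.25, while Supt6 changed by 0.96 ± 0.33 and was not called. Supt5 and Supt6 had relative log2 changes of -0.60 ± 0.25 and -0.81 ± 0.33 between knockout and control full-grown oocytes (limma, adjusted p = 0.079 and 0.094), and of 0.33 ± 0.25 and -0.84 ± 0.33 between knockout and control zygotes (limma, adjusted p = 0.31 and 0.081). Neither was called from oocyte to zygote in either genotype, from zygote to 48 h in the knockout, in growing oocytes or in spindle-transfer embryos. In the tests of the difference between genotypes Supt5 was lower for the step from zygote to 48 h, at -3.07 ± 0.35, and no other of these 4 tests passed. Supt16, part of the FACT histone chaperone, had 27.8 and 24.4 FPKM in 48 h knockout embryos, against 30.1 and 27.2 FPKM in 2-cell controls, and was not called.

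The sources used here do not say that counting kept the strand, and 16 members overlap an exon of a coding gene on the other strand, among them Polr2f, Polr2i, Taf1d, Taf1c, Tbp and Tbpl1. Reads of such partners cannot be told apart. Without these 16 and Taf9, a choice made after seeing the data, the counts of 66 tested members were 17 higher and 9 lower in knockout zygotes, 15 higher and 32 lower in 48 h knockout embryos, and 36 higher and 17 lower at the control 2-cell step.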

How the data were processed

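Smart-seq2 RNA-seq of 22 mouse oocyte and embryo libraries was used in the form that the authors deposited, 4 tables of FPKM, a unit that divides fragments by transcript length and by the mapped total of the library. Cufflinks 2.0.2, TopHat2 2.0.11 and the build mm9 appear in the submitters' processing notes, and the role of each tool and the annotation are not given in the sources used here. Libraries were grouped by their titles. Depth is not stated, and was estimated from the steps that single fragments make among the low values of single-transcript genes, so values under 1 FPKM rest on few fragments. A symbol with several loci or overlapping genes may hold reads of more than 1 gene.

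FPKM values were transformed as log2(FPKM + 1). Each table was fitted separately with limma 3.58.1 in R 4.3.3, with 1 mean per group and a trend of variance on mean, and the 12 libraries of full-grown oocytes, zygotes and 48 h embryos shared 1 fit. Tests were two-sided, with Benjamini-Hochberg adjustment over every gene tested in a table, and called at 0.05. Fold changes on this scale understate those of low genes. The fit was run on simulated data with normal noise and variances already shared across genes. Such data cannot show whether the shared variance suits these libraries. The Dnmt3l pair was compared by fold with no test. Python 3.11.15, pandas 2.3.3, numpy 2.4.6 and matplotlib 3.10.9 did the rest. Alternatives were a pseudocount of 0.1, no filter on low values, median-ratio and quantile scaling, the replicate number as a block, the compared groups alone, and leaving out each library.

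The members, the lists of other genes and the marker genes were chosen with earlier results of these data known. Named genes followed a rule: a fixed panel of 9 core genes (Polr2a, Polr2b, Tbp, Tbpl1, Taf1, Gtf2b, Med1, Cdk7 and Cdk9) with SPT5 and SPT6 in each comparison, up to 10 called members each way with the largest change and a mean of 5 FPKM or more in the higher group, the highest and lowest members at a stage, the 5 smallest p where under 3 members were called, and Setd2 and Tbpl2. Other names, such as those in related pairs, were chosen after their values were seen. Promoters came from RefSeq on GRCm38.p6 and no mm9 coordinates were used. Exon overlaps and transcript lengths came from GENCODE vM21.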

Additional observations from a re-analysis of the deposited data

Results flagged for a closer look

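The effect of the Setd2 knockout differed between stages in a test of the difference itself (limma's interaction contrast, adjusted over all genes of the table). Values are relative log2 differences, the knockout effect at the later stage minus that at the earlier one, less the median of all genes.

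Between full-grown oocytes and zygotes 17 of 82 members passed, all with a higher knockout effect in zygotes. Over all genes tested 8.29% passed with a higher effect and 1.1% with a lower one, so all genes leaned to the higher side too. The largest of those with a mean of 5 FPKM or more were Polr2k at 3.42, Med29 at 3.25, Gtf2h5 at 2.27, Polr2l at 2.05 and Med7 at 2.00. Of these 5, Polr2l was not called in every fit that left out 1 library, and the other 4 were. The summed oocyte markers were also higher, at 16314 and 16479 FPKM in knockout zygotes, against 7426 and 6717 FPKM in control zygotes. Of the 8 markers 6 were called higher and 0 lower, while Bmp15 and Oosp1 averaged lower in knockout zygotes. H1foo alone had 9363 and 7515 FPKM in the knockout zygote libraries, and Zp3 had 1103 and 2534 FPKM there. The part of the markers in the differences was not tested.

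Between zygotes and 48 h embryos 58 of 82 members (70.7%) passed, beside 66.2% of all genes tested, which is close to the background. In this comparison cell stage and genotype cannot be told apart. The effect was higher at 48 h for Med30 by 4.67, Taf9b by 4.43, Gtf2a1l by 3.87, Gtf2b by 3.17 and Med15 by 2.47. It was lower for Med29 at -7.90, Polr2h at -5.97, Gtf2h5 at -4.50, Polr2l at -4.41 and Polr2e at -4.40. All 10 of these remained called in every fit that left out 1 library.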

How the results depend on the processing

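Among the values of single genes named in the comparisons, 2227 stayed called or stayed not called under the alternatives, 229 lost the call, 10 gained it and 0 reversed. Direction was compared only where a gene was called in the main or the alternative fit. Genes called in neither fit may have changed sign. Counts of called members that moved by over 1.5 times were these. The replicate number as a block gave 1 member in growing oocytes (Taf9b, against 0) and 6 in knockout full-grown oocytes (against 3). Deviations of same-numbered libraries correlated by 0.186 in full-grown oocytes and by 0.0024 to 0.074 at the other 4 stages, with 2 pairs per stage, so the numbers were not used as pairs, and the block moved no other count that far. For knockout against control zygotes, the compared groups alone gave 0 members and 0 of all 12199 genes tested. The same held for knockout zygotes against knockout full-grown oocytes. The compared groups alone gave 5 members for the difference of knockout effects between zygote and full-grown oocyte. No filter on low values gave 9 for knockout zygotes against knockout full-grown oocytes and 6 for that difference, and median-ratio rescaling gave 8 for it. Leaving out 1 library gave 0 to 1 called members for knockout against control full-grown oocytes, 18 to 41 for the zygote genotypes, 34 to 42 at the control step from oocyte to zygote, 3 to 29 at that step in the knockout, 0 to 4 at the knockout step from zygote to 48 h and 4 to 26 for the difference between zygote and full-grown oocyte. It gave 48 to 51 in 48 h embryos, 61 to 65 at the control 2-cell step, 51 to 58 for the difference between 48 h and zygote, and 0 in growing oocytes and in spindle-transfer embryos. The cause of these shifts was not tested. Of the calls in the main comparisons, 27 of 31 in zygotes, 51 of 57 at 48 h, 49 of 55 at the control step from oocyte to zygote and 59 of 65 at the control 2-cell step remained under both rescalings. With 2 libraries a group and an estimated 3.11 to 4.70 M fragments in zygotes and 48 h embryos, low members such as Med16, Med12 and Taf15 are limited by depth.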
